A study of Mus musculus with 12 samples.

Results

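The calprotectin genes S100a8 and S100a9 and the stefin A genes Stfa1, Stfa2, Stfa2l1 and Stfa3 were described across 6 groups of mouse myeloid cells, as 6 of the 30743 genes that the array named. Each was read from the transcript cluster (the set of probes for a transcribed region) annotated to its symbol alone, and from the brightest by mean over all 12 arrays where there were several. Only Stfa3 had a further cluster, which belonged to Cstdc5, a neighbouring stefin gene, by its Entrez ID. The genes were selected on measured values, namely their high signal in neutrophils and their rise on wild-type differentiation, so those values are given as a description, with no test, and support nothing.

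The study asked what loss of the histone methyltransferase EZH2 does to neutrophil development. All 12 arrays came from HoxB8-ER cells, C57BL/6 bone marrow progenitors immortalized by a fusion of HOXB8 with the ligand-binding domain of the estrogen receptor, so the transgene is shared by every group. Each of the 6 groups had 2 arrays: undifferentiated wild-type and Ezh2-/- cells kept in 0.5 µM estradiol, neutrophils made from each genotype over 6 days without estradiol, and wild-type neutrophils that received the EZH2 inhibitor GSK343 or vehicle. The genotypes came from littermates. GSK343 stands at 0.5 µM for 9 days in the sample labels and at 1 µM in the series text. The number of lines per genotype and the origin of the replicates are not given in the labels. Genotype and cell line therefore cannot be told apart, and a p-value here measures the spread between arrays alone, some or all of which may be technical. The age of the mice, how Ezh2 was deleted and the sex of the lines were not given in the sources used here.

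S100A8 and S100A9 are small calcium-binding proteins that pair to form calprotectin, a highly abundant protein complex of the neutrophil cytosol. Calprotectin binds zinc and manganese, which starves microbes of these metals, and once released it acts as an alarm signal through TLR4 and RAGE. Stefins are cytosolic inhibitors that plug the active site of papain-family cathepsins. Mice carry a cluster of stefin A genes where humans carry the lone gene CSTA, and several of the mouse copies are known as transcripts of the neutrophil lineage.

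The 6 genes lie on 2 chromosomes, and their upstream sequences are shown because the members of each family moved together. The windows are the 250 bases before each gene's start, from RefSeq for build GRCm38.p6, at chr3:90668821-90669070 (plus strand) for S100a8, chr3:90695722-90695971 (minus) for S100a9, chr16:36276898-36277147 (plus) for Stfa1, chr16:36408364-36408613 (minus) for Stfa2, chr16:36156561-36156810 (plus) for Stfa2l1 and chr16:36455393-36455642 (minus) for Stfa3. All 6 symbols matched the RefSeq table. Each window is printed 5′ to 3′ on the gene's own strand, and capitals mark matches on either strand to the core GAGGAA, to the form TTNNGNAA, to the box TATAAA, and to the shared stefin runs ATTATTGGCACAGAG and, nearer the start, ACCTTTAAAACCC.
S100a8: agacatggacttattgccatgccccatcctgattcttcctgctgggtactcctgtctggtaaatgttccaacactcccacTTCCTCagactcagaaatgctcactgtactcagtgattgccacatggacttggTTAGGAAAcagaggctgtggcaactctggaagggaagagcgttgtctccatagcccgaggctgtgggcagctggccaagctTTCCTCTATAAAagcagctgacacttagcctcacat
S100a9: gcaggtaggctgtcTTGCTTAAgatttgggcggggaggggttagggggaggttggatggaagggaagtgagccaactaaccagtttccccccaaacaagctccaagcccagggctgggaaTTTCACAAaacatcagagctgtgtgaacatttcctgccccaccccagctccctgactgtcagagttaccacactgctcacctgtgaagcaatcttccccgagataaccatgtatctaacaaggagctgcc
Stfa1: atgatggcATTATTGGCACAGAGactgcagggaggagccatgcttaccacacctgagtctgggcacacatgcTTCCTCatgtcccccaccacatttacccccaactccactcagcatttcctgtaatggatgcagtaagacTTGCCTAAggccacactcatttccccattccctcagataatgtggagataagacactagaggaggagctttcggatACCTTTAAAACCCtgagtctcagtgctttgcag
Stfa2: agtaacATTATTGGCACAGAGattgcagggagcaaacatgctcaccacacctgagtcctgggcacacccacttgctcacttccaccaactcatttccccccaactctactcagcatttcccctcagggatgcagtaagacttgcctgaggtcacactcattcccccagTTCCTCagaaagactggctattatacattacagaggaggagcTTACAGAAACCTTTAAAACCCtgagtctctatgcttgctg
Stfa2l1: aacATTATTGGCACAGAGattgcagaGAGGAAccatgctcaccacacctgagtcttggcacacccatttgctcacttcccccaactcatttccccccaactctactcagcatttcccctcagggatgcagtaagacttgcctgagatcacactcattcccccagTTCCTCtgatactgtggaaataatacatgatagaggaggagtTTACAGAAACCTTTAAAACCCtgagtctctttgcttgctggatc
Stfa3: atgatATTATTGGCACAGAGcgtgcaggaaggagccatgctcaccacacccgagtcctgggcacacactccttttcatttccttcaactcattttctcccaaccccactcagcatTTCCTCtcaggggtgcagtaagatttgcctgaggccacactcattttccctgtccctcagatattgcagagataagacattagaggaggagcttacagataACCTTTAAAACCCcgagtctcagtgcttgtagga

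The letters of GAGGAA, the core that the myeloid factor PU.1 is known to bind, occurred in 5 of the 6 windows and in 23.3% of the 32851 RefSeq promoter windows of the same length. TTNNGNAA, a form bound by C/EBP factors, occurred in 5 of the 6 and in 36.8% of all windows. TATAAA occurred in S100a8 alone, directly after a TTCCTC run with which it forms a single stretch of capitals, and in 12.4% of all windows. The last 2 strings were taken from these windows themselves, so their presence in the stefin genes is by construction. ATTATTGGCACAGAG, of 15 bases, was the longest run that all 4 stefin windows shared, beginning at positions −247 to −242 from the start. It stood in 5 of all windows (0.015%), and the only one outside the members was that of Cstdc5. ACCTTTAAAACCC, of 13 bases, was the longest shared run within 50 bases of the start, beginning at positions −36 to −32. It stood in 8 of all windows (0.024%), among them those of the relatives Csta3, Cstdc4 and Cstdc3. In Stfa2 and Stfa2l1 it directly follows a match to the C/EBP form, and both appear as a single stretch of capitals. The 4 stefin windows were 80.4% to 89.4% identical over aligned columns, closest between Stfa2 and Stfa2l1, whereas S100a8 and S100a9 were 49.8% identical, no more than either was to a stefin window (50.9% to 52.6%). A match describes letters only. Copies this alike may also share probe sequence on the array, so the signal of each stefin gene is uncertain with respect to its neighbours.

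The deposited values were log2 signals. Array background was set from the 23 antigenomic controls at their 95th percentile and lay between 4.83 and 5.79, and arrays of a group correlated at r of 0.984 to 0.995 across clusters. The 8 genotype arrays and the 4 drug arrays differed in scale (medians over clusters of 4.54 to 4.65 and of 3.88 to 3.96), so each contrast compares groups of the same set. The spread, however, was estimated from all 12 arrays together, drug arrays included, where some members were equal on both arrays of a group or at the array maximum. The SE and interval of every contrast, the drug contrast included, therefore carry the spread of groups outside it. Among these groups the members varied most in undifferentiated Ezh2-null cells (SD 1.28 to 2.22). Ezh2 itself was lower in undifferentiated Ezh2-null cells (11.57 and 11.65 in wild type against 9.10 and 9.44, log2 difference −2.34, SE 0.155, adjusted p = 5.5e-05) but not in the neutrophils (8.31 and 8.34 against 8.74 and 9.02, adjusted p = 0.0501), which are therefore called neutrophils labelled Ezh2-null. All 14 measured neutrophil maturity markers lay above background on each of the 8 neutrophil arrays, while at most 2 of 12 keratinocyte markers did on any of the 12 arrays. Of 11 monocyte and macrophage markers, however, 9 or 10 did on each neutrophil array. In wild-type neutrophils Csf1r read 14.66 and 15.90. These markers therefore do not show that the cultures held neutrophils alone. Adjusted p-values are from limma, fitted to all 12 arrays and adjusted by the Benjamini-Hochberg method over 65956 clusters, with calls at 0.05. Both genotype contrasts share wild-type arrays with the differentiation contrast on which the genes were selected. That selection favours low signal in wild-type undifferentiated cells and high signal in wild-type neutrophils. It therefore favours a positive genotype difference in undifferentiated cells and a negative one in neutrophils.

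**Figure D1:**
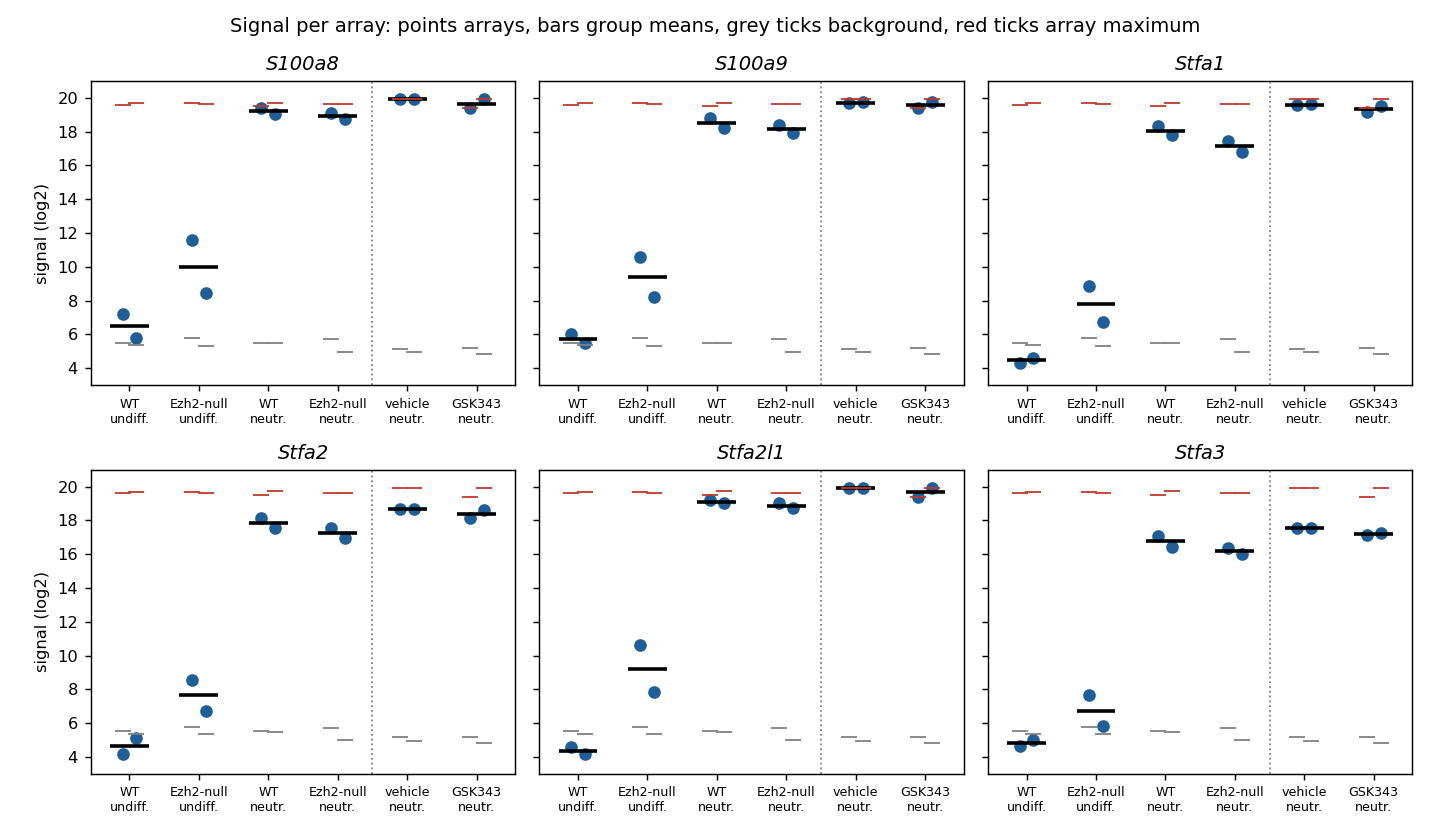
Log2 signal of each of the 6 genes (vertical axis) on every array, by group. Points are arrays, bars are means of the 2 arrays, grey ticks are the background and red ticks the highest value of each array, and the dotted line parts the genotype arrays from the drug arrays. The 4 stefin genes sit at or under background in wild-type undifferentiated cells, all 6 genes are higher on both Ezh2-null undifferentiated arrays, and S100a8 and Stfa2l1 reach the array maximum on all 4 drug arrays.

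In wild-type cells, differentiation took the stefin genes from background to near the top of the array's range. S100a8 read 7.18 and 5.79 in undifferentiated cells and 19.38 and 19.05 in neutrophils. S100a9 read 6.00 and 5.49, then 18.79 and 18.23. Both calprotectin genes were above background on both undifferentiated arrays, and they read higher in neutrophils by 12.73 and 12.77 log2 units respectively. These readings were close to the floor. Against the median of the negative controls (6.08 and 6.00), S100a9 was above it on neither array and S100a8 on array 1 alone. With that limit the rise of S100a9 is at least 12.47 log2 units.

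Stfa2l1 read 4.60 and 4.14 in undifferentiated wild-type cells and 19.18 and 19.02 in neutrophils. Stfa1 read 4.32 and 4.62, then 18.31 and 17.78, and Stfa2 read 4.15 and 5.12, then 18.13 and 17.57. Stfa3 read 4.67 and 4.97, then 17.08 and 16.43. All 4 stefin genes were at or under background on both undifferentiated arrays, so their rises are lower limits, taken against background or the gene's own signal, whichever was higher on each array: at least 12930-fold for Stfa2l1, 6227-fold for Stfa1, 5444-fold for Stfa2 and 2549-fold for Stfa3. These values are how the genes were found, and no call is read from them.

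In undifferentiated cells all 6 genes read higher on both Ezh2-null arrays than on both wild-type arrays, as did 18.0% of all clusters. The test called 4 of the 6 higher, where 1.65% of all clusters were called higher and 2.99% in either direction. Selection on the wild-type rise favours this direction, so these calls are a description and give no independent support. S100a8 read 11.57 and 8.43 against 7.18 and 5.79, and S100a9 read 10.56 and 8.24 against 6.00 and 5.49. Of the pair, S100a9 passed the test (log2 difference 3.66, SE 0.59, adjusted p = 0.0105), a 12.6-fold difference. S100a8 differed by a similar amount with a wider spread and did not pass (3.51, SE 0.83, adjusted p = 0.065). The SD of S100a9 was 0.36 in wild-type and 1.64 in Ezh2-null undifferentiated cells. Its SE also draws on the neutrophil groups, where the SD was 0.03 to 0.39, and so understates the spread of the compared arrays.

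Stfa2l1 was the stefin gene with the widest gap, at 10.60 and 7.86 in Ezh2-null cells against 4.60 and 4.14. It was at least 13.8-fold higher (log2 difference 4.86, SE 0.68, adjusted p = 0.00454). Stfa1 read 8.84 and 6.72 against 4.32 and 4.62, at least 5.05-fold higher (3.31, SE 0.56, adjusted p = 0.0127). Stfa2 read 8.56 and 6.74 against 4.15 and 5.12, at least 4.62-fold higher (3.02, SE 0.54, adjusted p = 0.0178). Stfa3 showed the smallest gap and did not pass, with 7.64 and 5.83 against 4.67 and 4.97 (at least 2.45-fold, 1.91, SE 0.48, adjusted p = 0.0807).

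The median fitted difference over the 6 was 3.41, or 2.93 with the stefin genes at their lower limits, against −0.01 over all clusters. All 6 genes were above background on both Ezh2-null arrays. The levels remained far from those of neutrophils: the closest approach was S100a8 on Ezh2-null array 1, at 11.57 against 18.73 or more on every neutrophil array. In bulk RNA, a few cells with high levels and many cells with low levels cannot be told apart.

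The number called depended on the arrays fitted. It was 1 with only the 8 genotype arrays (Stfa2l1, adjusted p = 0.0367), 0 with only the 4 arrays compared, 1 without wild-type array 1 (Stfa2l1) and 2 without wild-type array 2 (Stfa2l1 and Stfa2), while the log2 differences stayed positive throughout.

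The 2 Ezh2-null undifferentiated arrays stood apart on every member. Array 1 was above array 2 by 3.14 log2 units for S100a8, 2.74 for Stfa2l1, 2.32 for S100a9, 2.12 for Stfa1, 1.83 for Stfa2 and 1.81 for Stfa3. The wild-type undifferentiated arrays differed by 0.30 to 1.39, and not in one direction: array 1 was the higher for S100a8, S100a9 and Stfa2l1 and the lower for the other stefin genes. Without Ezh2-null array 1 the difference from wild type was 1.94 for S100a8, 2.50 for S100a9, 2.24 for Stfa1, 2.10 for Stfa2, 3.49 for Stfa2l1 and 1.01 for Stfa3, with the same 4 genes called. Without array 2 all 6 were called, with S100a8 at 5.09 and Stfa3 at 2.82. Each of these fits leaves 1 array in the Ezh2-null arm, which is then assumed to vary like the other groups.

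Other genes of late neutrophil development moved in different directions in the same cells. Of 14 neutrophil maturity markers, Ltf, which encodes lactoferrin of specific granules, was called higher in undifferentiated Ezh2-null cells (7.68 and 6.41 against 4.79 and 4.88, at least 3.04-fold, adjusted p = 0.016). Mmp8, the neutrophil collagenase gene, was called lower by 6.43 log2 units (6.10 and 5.08 against 12.48 and 11.55, adjusted p = 0.000108), and Itgam, which encodes the CD11b integrin chain, was called lower by 1.76. Ngp, a neutrophil granule protein gene, read 9.11 and 6.33 against 5.39 and 5.42 (2.31, adjusted p = 0.158), and Chil3, a chitinase-like secreted protein gene, read 9.52 and 6.50 against 5.69 and 5.07 (2.63, adjusted p = 0.149). Both were higher on Ezh2-null array 1 than on array 2, as the members were. This was not particular to late neutrophil genes. Array 1 also read higher for genes of other lists, among them Ctsg, Tfrc and Cst3, and lower for others, among them Gfi1 and Ms4a2.

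The remaining maturity markers were not called. Camp read close to background in both genotypes (0.21), and Cd177 and Ly6g, the surface antigen of mature mouse neutrophils, were not above background on any undifferentiated array. The median over the 14 was 0.48, or 0.10 with undetected groups at their limits. The mean level of this list was 7.06 and 6.23 on the Ezh2-null arrays and 6.62 and 6.45 on the wild-type arrays. Of 8 promyelocyte and primary granule markers 3 were lower (Ms4a3, Ctsg and Elane, at −6.86, −4.00 and −3.56) and none was higher, where 1.34% of all clusters were called lower. Of 11 monocyte and macrophage markers 2 were lower, of 11 mast cell and basophil markers 2 were higher and 1 lower, and of 11 erythroid markers 1 was higher. Whether any of these shifts plays a part in the members' difference was not tested.

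**Figure D2:**
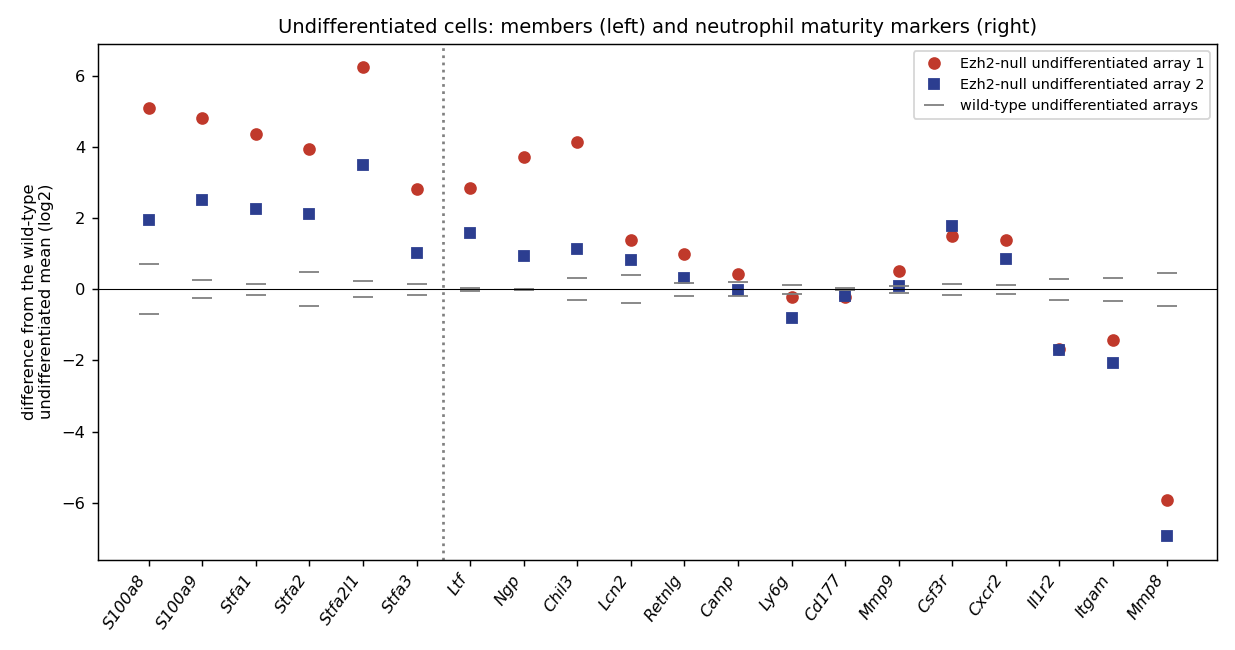
Difference from the wild-type undifferentiated mean (log2, vertical axis) of the 2 Ezh2-null undifferentiated arrays (circles and squares) and the 2 wild-type arrays (grey ticks), for the 6 genes on the left and 14 neutrophil maturity markers on the right. Both Ezh2-null arrays lie above both wild-type arrays for all 6 genes, with array 1 higher, whereas Mmp8 and Itgam lie below. Cd177 and Ly6g were not above background on any of these arrays.

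Of 9 measured genes in the list of stefin A locus relatives and stefin B, 3 were called higher in undifferentiated Ezh2-null cells. These were Cstdc6 (8.24 and 6.46 against 4.49 and 4.51, at least 3.76-fold, adjusted p = 0.0115), Csta2 (7.15 and 5.79 against 4.13 and 4.33, at least 2.04-fold, adjusted p = 0.012) and Cstdc4 (at least 2.67-fold, adjusted p = 0.0269). Cstdc5 (at least 1.39-fold, adjusted p = 0.0565) and Csta3 (at least 1.52-fold, adjusted p = 0.233) did not pass. Csta1 and Cstdc1 (0.0044 and −0.12) were not above background on any undifferentiated array. By its cluster name, Cstdc1 does not lie on chromosome 16 with the stefin A members, though the list holds it. The median over the 9 was 1.31, or 0.47 with undetected groups at their limits. Cstb, which encodes stefin B and is expressed in many cell types, was at −1.03 and was not called (adjusted p = 0.275).

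The wider families showed no such calls. None of the other 14 measured S100 family genes was called in undifferentiated cells (median −0.04), but only 3 or 4 of the 14 were above background on each array. S100a6 was at −1.04, and S100a4 and S100a10 were not above background on any undifferentiated array. None of 12 other cystatin genes was called either (median −0.15). Whether the members differ from their families was not tested.

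Genes whose products meet calprotectin or the stefins were compared as well. Among 10 calprotectin receptor genes, Ly96, which encodes the MD-2 subunit that TLR4 needs for ligand binding, was higher in undifferentiated Ezh2-null cells (13.85 and 14.07 against 11.45 and 11.78, log2 difference 2.35, adjusted p = 0.000231). Tlr4 itself was lower (7.18 and 6.14 against 8.92 and 9.77, −2.69, adjusted p = 0.00359), and so was Cd33 (−1.56, adjusted p = 0.0447), a sialic acid-binding receptor. Of 10 papain-family cathepsin genes, the targets of stefins, Ctsl was higher by 0.76 (adjusted p = 0.0351). Ctsf was called too (adjusted p = 0.0193) but was above background on 1 of the 4 arrays alone, so no size is given. Ctsb (−0.07) and Ctss (−0.08) were not called. Of 11 transcription factor genes tied to S100a8 and S100a9 in myeloid cells, Cebpa, a driver of granulocyte commitment, was the only one called and was lower (11.19 and 11.35 against 12.94 and 12.86, −1.63, adjusted p = 0.0146).

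In the neutrophils themselves no member was called by genotype, while 11.8% of all clusters were. S100a8 read 19.09 and 18.73 in neutrophils labelled Ezh2-null against 19.38 and 19.05 in wild type, and S100a9 read 18.38 and 17.95 against 18.79 and 18.23. Stfa2l1 read 19.04 and 18.71 against 19.18 and 19.02. In each of these 3 genes the genotypes overlapped, with log2 differences of −0.30, −0.34 and −0.23 and adjusted p of 0.908, 0.838 and 0.919.

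The other stefin genes were lower on both arrays labelled Ezh2-null. Stfa1 read 17.46 and 16.79 against 18.31 and 17.78, a difference of −0.92 (95% interval −2.18 to 0.34, adjusted p = 0.406). Stfa2 read 17.54 and 16.94 against 18.13 and 17.57 (−0.61, interval −1.84 to 0.61, adjusted p = 0.62), and Stfa3 read 16.35 on array 1 labelled Ezh2-null and 0.35 less on array 2, against 17.08 and 16.43 (−0.59, interval −1.66 to 0.49, adjusted p = 0.575). These 3 genes did not overlap between genotypes, and neither did 27.7% of all clusters in this direction. None of the 3 was called, where 5.06% of all clusters were called lower. The median over the 6 genes was −0.46, against −0.03 over all clusters. The intervals leave room for differences of over 1 log2 unit for every member. Their width is not the spread of the compared arrays alone. It also carries that of undifferentiated Ezh2-null cells, where the members' SD was 1.28 to 2.22. In the 2 neutrophil groups compared the SD was 0.12 to 0.48.

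S100a8 and Stfa2l1 lay 0.15 to 0.92 log2 units under the array maximum on these 4 arrays, which limits what a difference of theirs can show. Other genes differed by more on the same arrays. Of the 14 neutrophil maturity markers 7 were called lower in neutrophils labelled Ezh2-null and none higher (median −1.44), led by Camp, the cathelicidin gene (9.63 and 10.11 against 15.31 and 13.89, −4.74, adjusted p = 0.000103), Cd177 (−4.47), Il1r2 (−3.59) and Ly6g (−3.38). Others of the list differed as little as the members did. Group means were 17.57 against 17.96 for Mmp8, 15.64 against 16.11 for Mmp9, 14.48 against 15.26 for Csf3r and 17.38 against 18.23 for Retnlg. The mean of Cxcr2 was higher, at 15.06 against 14.18. All 11 mast cell and basophil markers and all 11 erythroid markers were called higher (medians 4.15 and 5.84, or 4.15 and 4.24 with undetected groups at their limits), as were 6.75% of all clusters. The mean level of the mast cell list was 10.93 and 11.63 on the arrays labelled Ezh2-null and 5.81 and 5.74 in wild type, and that of the erythroid list was 11.43 and 11.49 against 5.18 and 5.17. Of the mast cell markers 10 were above background on each labelled-null array and 3 or 4 on the wild-type arrays. Promyelocyte markers were higher in 4 of 8 cases and monocyte markers lower in 5 of 11. The part of this mixture of lineage markers in the members' values was not tested.

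The 7 stefin relatives above background read lower on average in neutrophils labelled Ezh2-null. Csta1 and Cstdc1 were not above background on any of these arrays. None of the 9 was called (median −0.93), with Csta3 lowest (−1.40, adjusted p = 0.0847). Among 14 other S100 family genes only S100pbp was called (0.50, adjusted p = 0.0348), which encodes a protein that binds an S100 protein and is no S100 protein itself, and no other cystatin was. Ctsl, which encodes cathepsin L, was higher by 1.87 (13.73 and 13.93 against 11.90 and 12.01, adjusted p = 0.000112) and Ctsh by 0.77, while Ctso was lower by 0.81. The receptor genes Tlr4 (−2.49), Cd33 (−1.66) and Cd14 (−1.63), the co-receptor of TLR4, were lower and Cd69, an activation antigen, was higher by 2.36. Among the transcription factors Cebpe, needed for specific granules, fell by 1.77 (adjusted p = 0.0318) and Cebpa fell by 1.35, and Myb, a progenitor factor, was higher by 2.90.

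**Figure D3:**
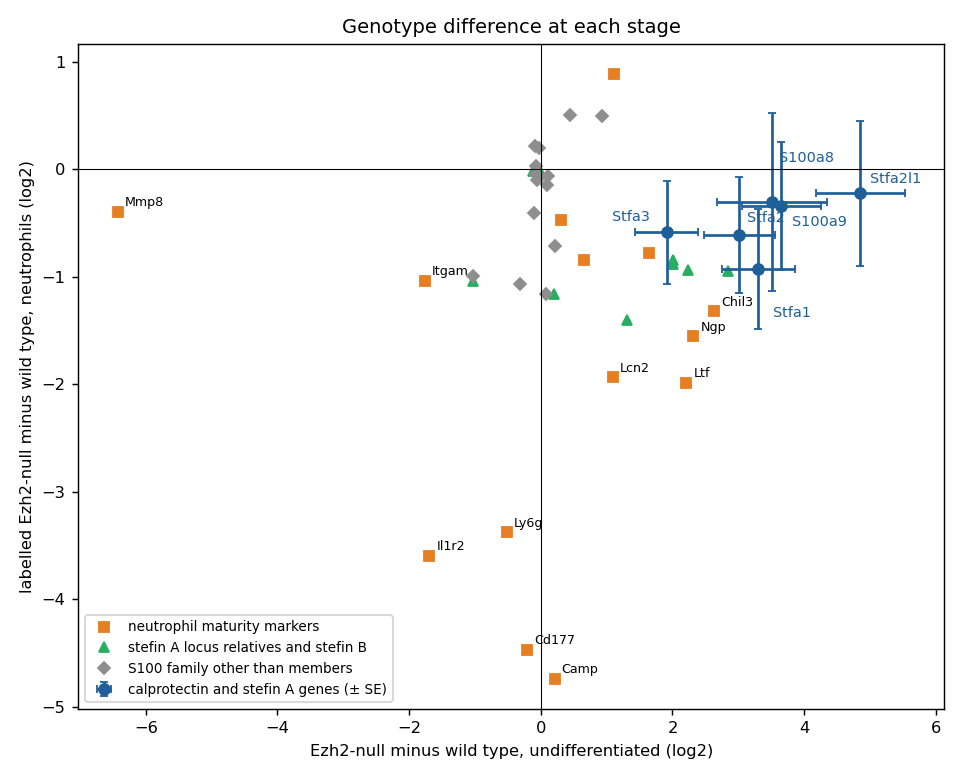
Genotype difference (log2) in undifferentiated cells on the horizontal axis and in neutrophils on the vertical axis, one point per gene, for the 6 calprotectin and stefin A genes with SE bars, neutrophil maturity markers, stefin relatives and other S100 genes. The 6 genes lie to the right, between 1.91 and 4.86, and just under 0 on the vertical axis, while Camp, Cd177, Ly6g and Il1r2 lie far below 0 on the vertical axis and at or left of 0.21 on the horizontal, where Cd177 and Ly6g were not detected. Other maturity markers, Mmp8, Mmp9, Csf3r and Retnlg, lie within the members' vertical range, and Cxcr2 lies above 0.

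On differentiation of Ezh2-null cells the 6 genes read higher by 8.91 log2 units for S100a8 (SE 0.83), 8.77 for S100a9 (SE 0.59), 9.34 for Stfa1, 9.59 for Stfa2, 9.65 for Stfa2l1 and 9.44 for Stfa3. The genes were selected on their signal in neutrophils, so these values are a description and no test is given. All 14 maturity markers rose (median 7.34), where 11.7% of all clusters were called higher, with Mmp8 at 11.98 and Itgam at 7.44.

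Of the stefin relatives 7 of 9 rose in Ezh2-null cells, with Cstdc4 at 9.61, Cstdc6 at 9.14 and Csta3 at 9.13. Of the other S100 genes 4 of 14 rose and 2 fell (10.7% of all clusters fell), with S100a6 at 5.11 (adjusted p = 3.06e-05) and S100a4, which was under background before differentiation, at least 5.58-fold higher. S100a1 fell by 1.83. Cathepsin genes rose in 7 of 10 cases and fell in 1, with Ctss at 10.92, Ctsb at 5.12 and Ctsl at 5.07. Among the other cystatins, Cst3, which encodes the secreted cystatin C, rose by 1.77 and Cst7, the cystatin F gene, fell by 2.65.

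The genotype difference in neutrophils minus that in undifferentiated cells is the same quantity as the Ezh2-null rise minus the wild-type rise, on which the genes were selected. A negative value is therefore favoured by the selection, and the members' values are given with no test. They were −5.08 for Stfa2l1, −4.23 for Stfa1, −4.00 for S100a9, −3.82 for S100a8, −3.63 for Stfa2 and −2.50 for Stfa3. The undifferentiated wild-type signals of the stefin genes were at background, so their values carry that floor.

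Of the 9 stefin relatives 5 were called with a negative value and none with a positive one (median −2.71), where 1.65% of all clusters were called with a negative value, and of the 14 other S100 genes none was called. Among maturity markers 5 of 14 were negative, with Camp at −4.94, Cd177 at −4.26 and Ltf at −4.20, and Mmp8 was positive (6.03). The undifferentiated levels of Cd177 in both genotypes, and of Ltf in wild type, were under background.

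Within the 8 genotype arrays each gene kept the same order of group means: wild-type undifferentiated, Ezh2-null undifferentiated, neutrophils labelled Ezh2-null, wild-type neutrophils. For S100a9 these were 5.74 ± 0.36, 9.40 ± 1.64, 18.17 ± 0.30 and 18.51 ± 0.39 (SD, n = 2 each). For Stfa2 they were 4.63 ± 0.68, 7.65 ± 1.29, 17.24 ± 0.42 and 17.85 ± 0.40. The neutrophil groups are neighbours that did not differ by the test in any member, and the undifferentiated groups differed by it in 4 members. Selection on the wild-type rise favours the wild-type groups at both ends of this order, so the order supports nothing. Across the neutrophil arrays of each genotype, array 1 was the brighter for every member, by 0.17 to 0.65 in wild type and by 0.33 to 0.67 in those labelled Ezh2-null. This was not particular to the members. The mean of the maturity markers was 16.37 and 15.38 in wild type and 14.31 and 13.78 in those labelled Ezh2-null. That of monocyte and macrophage markers went the other way, at 10.80 and 11.87, then 9.17 and 9.57.

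On the GSK343 and vehicle arrays some members met the top of the scale. These arrays differ in scale from the genotype arrays, so expression and processing cannot be told apart here. S100a8 and Stfa2l1 both read 19.93 and 19.93 with vehicle and 19.40 and 19.93 with GSK343, which is the highest value of each array. Those values were shared by 23 or 24 entries on 3 of the arrays and by 109 on GSK343 array 1. On the genotype arrays 1 to 4 entries held the highest value. No fold can be given for either gene. S100a9 read 19.40 and 19.74 against 19.70 and 19.74, with GSK343 array 1 at its array's maximum.

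The remaining stefin genes lay under the maximum on all 4 drug arrays. Stfa1 read 19.19 and 19.54 with GSK343 against 19.56 and 19.62. Stfa2 read 18.17 and 18.61 against 18.70 and 18.70, and Stfa3 read 17.13 and 17.28 against 17.55 and 17.55. All 3 were lower on both GSK343 arrays, as were 18.6% of all clusters, by 0.23 (95% interval −1.49 to 1.03), 0.31 (−1.54 to 0.91) and 0.34 (−1.42 to 0.73) log2 units, and none was called (adjusted p = 1 each), where 0.00152% of all clusters, which is 1 cluster, was called.

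Measured from each array's own maximum, Stfa2 lay 1.23 and 1.32 below it with GSK343 and 1.23 and 1.23 below it with vehicle. Stfa3 lay 2.27 and 2.65 below it with GSK343 and 2.38 and 2.38 with vehicle, and the groups overlapped. The 1 cluster called between GSK343 and vehicle was higher with GSK343 and is that of Cpa3, the mast cell carboxypeptidase gene (2.99, adjusted p = 0.0187). No stefin relative, S100 gene, cystatin, cathepsin, receptor, transcription factor or maturity marker of the lists was called.

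**Figure D4:**
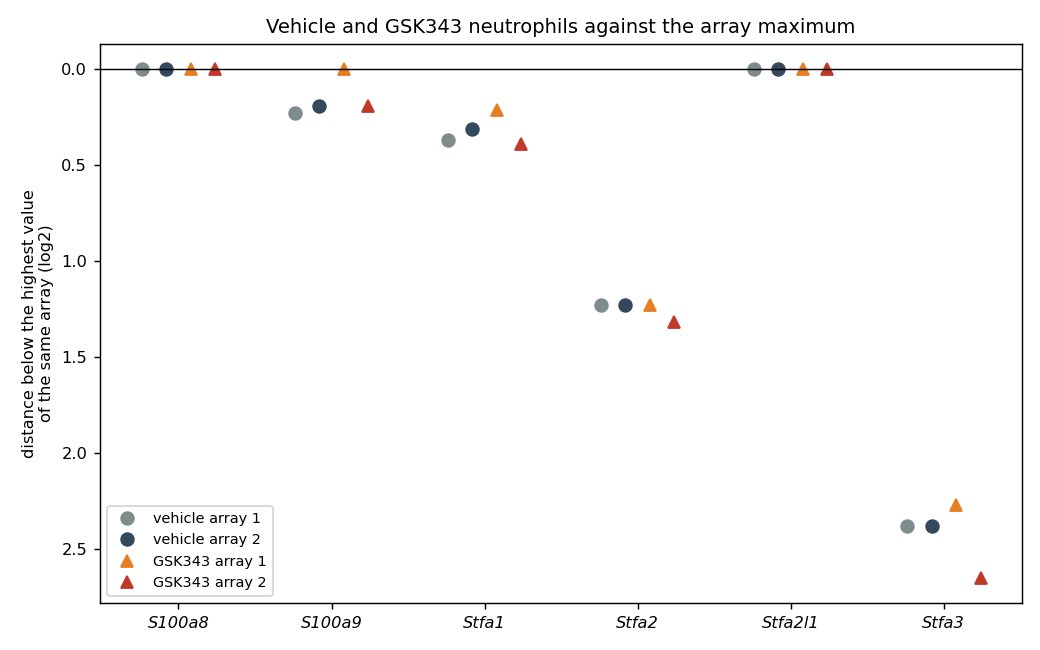
Distance of each gene's signal below the highest value of the same array (log2, vertical axis, 0 at the top) on the 2 vehicle arrays (circles) and 2 GSK343 arrays (triangles). S100a8 and Stfa2l1 sit at 0 on all 4 arrays and S100a9 on GSK343 array 1, while Stfa1, Stfa2 and Stfa3 sit 0.21 to 2.65 below the maximum.

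The genes whose profiles were most like the members' were mostly one another and other stefin genes. Likeness was the root-mean-square distance between profiles over the 8 genotype arrays after each profile's own mean was removed, taken among 30743 genes. The closest gene to S100a8 was S100a9 (0.31 log2 units), followed by Chil3, Cstdc6, Stfa1 and Ngp (0.60 to 0.76). The closest to S100a9 after S100a8 were Cstdc6 (0.43), Stfa1 (0.47), Stfa2 (0.56) and Chil3 (0.63).

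Among the stefin members, Stfa1 and Stfa2 were closest to each other (0.24), with Cstdc6 next for both (0.29 and 0.33). Stfa3 was closest to Cstdc5 (0.27) and Cstdc4 (0.33), and all 5 of its nearest genes were stefin relatives, which were Cstdc6, Csta2 and Csta3 after these. Stfa2l1 stood farther from every gene, with Stfa1 at 0.76 and S100a9 at 0.84, and the widest gap between members was that between Stfa2l1 and Stfa3 (1.33). The distances are dominated by the step between undifferentiated cells and neutrophils, which all these genes share, and are a description over 8 arrays.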

How the data were processed

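The deposited values were log2 signals per transcript cluster from the Affymetrix Mouse Transcriptome Array 1.0, hybridised with 250 ng of RNA per the labels' protocols. Expression Console and Transcriptome Analysis Console, both from Affymetrix, are the tools named in the submitters' processing notes. How probes were summarised, background-corrected and normalized, and on which build, is not given in the sources used here. The 8 genotype and 4 drug arrays differed in scale and look separately normalized.

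Of 72688 entries, 6732 controls were left out, and 65956 clusters were fitted in R 4.3.3 by lmFit and eBayes of limma 3.58.1 (a mean per group, 12 arrays, residual degrees of freedom 6, prior 3.06), after a test on simulated data. Calls were made at a Benjamini-Hochberg adjusted p of 0.05. The 31216 clusters with 1 symbol gave 30743 genes, 1534 clusters had several symbols and 33206 none. Entrez IDs matched 23430 clusters in a RefSeq table (GRCm38.p6) and updated 874 symbols. With 2 arrays a group, their number limits the precision. The members' planned tests of Ezh2-null differentiation and of the interaction were dropped, since both contain values on which the genes were selected. The genotype tests were kept, although they too contain wild-type arrays used in that selection. Their results for the members are therefore not independent of it. Members at the array maximum on all drug arrays were given no drug difference.

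The members, the 12 gene lists and the tests were chosen with earlier results of these data known. The lists held other S100 genes, stefin relatives, other cystatins, cathepsins, calprotectin receptors, myeloid transcription factors, and markers of mature neutrophils, promyelocytes, mast cells and basophils, erythroid cells, monocytes and macrophages, and keratinocytes. Besides the members, up to 4 called genes per list and contrast were named, by size of difference, plus list genes needed as negatives and the 5 genes nearest each member. Where neither array of the dimmer group read above background, the fold has only a lower limit, given as "at least". The alternatives tried were other sets of arrays, normalizations, filters, eBayes settings, a replicate block, another background limit, the further Stfa3 cluster and each array left out.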

Additional observations from a re-analysis of the deposited data

Results flagged for a closer look

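The genotype difference of 3 stefin genes pointed opposite ways at the 2 stages. Both Ezh2-null arrays were above both wild-type arrays in undifferentiated cells, and both arrays labelled Ezh2-null were below both wild-type arrays in neutrophils, for Stfa1, Stfa2 and Stfa3. The difference in neutrophils minus that in undifferentiated cells was −4.23 for Stfa1, −3.63 for Stfa2 and −2.50 for Stfa3. This difference was not tested, because it contains the rise on wild-type differentiation on which the genes were selected and which favours a negative value. The undifferentiated wild-type signals of the 3 genes were at or under background, and none of the 3 was called by genotype in neutrophils. No group of 2 arrays could be examined for an outlying array.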

How the results depend on the processing

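Over the alternatives run, no member changed direction in the differentiation contrasts, in either genotype contrast or in the difference between stages. The members called higher in undifferentiated Ezh2-null cells, 4 in the full fit, numbered 1 with only the 8 genotype arrays, 0 with only the 4 compared arrays, and 1 to 6 with each array left out in turn. Those fits had fewer arrays from which to estimate the spread. Clusters called in all fell from 1969 to 1061 with the 8 genotype arrays and to 351 with the 4 compared arrays. Both of these fits also left out the vehicle arrays, on which the members' SD was 0 to 0.039. In undifferentiated Ezh2-null cells their SD was 1.28 to 2.22. The part of each in the lower counts was not tested. The count was 6 with clusters above background on at least 2 arrays and 5 with 1-symbol clusters. With the replicate number as a block the count stayed at 4, for the same 4 members. Deviations of same-numbered arrays correlated at −0.193 to 0.185 in the pairs of groups compared. The highest value, 0.185, was between wild-type neutrophils and those labelled Ezh2-null. Whether arrays of the same number share a batch cannot be told from these values. Without GSK343 array 1, whose maximum was lower, the difference of S100a9 from vehicle turned from −0.16 to 0.013, and without GSK343 array 2 it was −0.32. With background set at the median of 5222 negative controls, the lower limits in undifferentiated cells were 9.12-fold for Stfa2l1, 3.34-fold for Stfa1, 3.06-fold for Stfa2 and 1.62-fold for Stfa3, and S100a9 also had only a limit (10.3-fold). Ranking similar genes by Pearson correlation kept 3 or 4 of the 5 nearest genes of each member. The array maximum limits what the drug comparison can show.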

Other observations

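Bright clusters on the 2 vehicle arrays often held exactly the same value. Among 374 clusters with a mean above 17 on the pair, 64 were equal to the last digit, 43 of them below the array maximum. Stfa3 was one of these, at 17.55 on both arrays, and S100a8 and Stfa2l1 were equal at the maximum. In each of the other 5 groups at most 1 cluster above 17 was equal between replicates. GSK343 array 2 shared 50 and 42 such values with vehicle arrays 1 and 2, and GSK343 array 1 shared none with any drug array.

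Some maturity markers differed more between GSK343 and vehicle than S100a9, Stfa1, Stfa2 or Stfa3 did, without being called. Mmp8 read 14.28 and 14.36 with GSK343 and 18.29 and 18.16 with vehicle (log2 difference −3.90, adjusted p = 0.119). Retnlg, which encodes a resistin-like protein of mature neutrophils, read 16.19 and 16.41 against 18.14 and 18.29 (−1.92, adjusted p = 0.234). Mmp9 read 12.21 and 12.96 with GSK343 against 15.68 and 15.31 with vehicle. These genes were named after their values were seen.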
